A study of Oncorhynchus mykiss with 24 samples.

Results

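The genes described here are axin1, tnksa and fzd7a of the Wnt/beta-catenin pathway, measured in the eggs and embryos of a hybrid trout, made by fertilizing Oncorhynchus mykiss (rainbow trout) eggs with Salvelinus fontinalis (brook trout) sperm. The starting point was 3 O. mykiss loci, LOC110485340 (axin1), tnksa and LOC110495872 (fzd7a), that had been selected on their difference between the animal and the vegetal part of the egg. Every locus of either parental genome that carried one of these 3 symbols was then taken, either as its own name or through the zebrafish name in the deposited ortholog table. This gave 20 of the 32765 loci in the count table, 10 on the O. mykiss side (3 axin1, 4 tnksa and 3 fzd7a) and 10 on the S. fontinalis side (4 axin1, 4 tnksa and 2 fzd7a). Salmonids carry extra gene copies from an ancestral genome duplication, so several loci per symbol are usual in these fish.

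For TOMO-seq, each egg or embryo was divided along its animal-vegetal axis. Section A is the animal and section B the vegetal piece, each sequenced as a library. Samples were taken at 0 and 1 hours post fertilization (hpf) and at 1 and 3 days (dpf), when embryos had some 32 to 64 and 1000 cells. All groups are the same O. mykiss egg with S. fontinalis sperm, except that the labels of 0 hpf name both an egg that was not fertilized and a freshly fertilized one. The labels of 1 hpf name both a 1-cell egg and early cleavage. The table held 2 libraries of each section at 0 hpf and 3 dpf and 3 of each section at 1 hpf and 1 dpf, 20 of the 24 labelled, and the other 4 were not analysed here. Library totals ran from 5011274 to 9986001 counts. Counts on S. fontinalis loci made up 24.03% and 22.5% of the libraries of section A at 3 dpf and 0.927% to 1.08% of the other 18. A list of 11 RNAs known from the vegetal pole of fish eggs was also summed, in CPM, the counts scaled to a common library size. Its 20 O. mykiss loci reached 799 to 1530.4 CPM in section A libraries and 3900 to 10852 CPM in section B libraries. The list was chosen with earlier results of these data known, so it is no independent check of the cut. Of other lists, blood had 0 of 9 symbols in the table, ovarian follicle 1 of 12, liver and yolk 1 of 10, and sperm and testis 2 of 11, and none of these lists summed to more than 36.8 CPM in any library.

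Axin1 is the scaffold of the destruction complex, which marks beta-catenin for breakdown in the absence of a Wnt signal. Tankyrase, the product of tnksa, attaches ADP-ribose chains to Axin and so leads to its degradation, which stabilizes beta-catenin. Frizzled 7, the product of fzd7a, is a receptor of the cell surface that binds Wnt ligands. In zebrafish eggs, maternal determinants that set the dorsal side, hwa RNA among them, lie at the vegetal pole, and the hwa protein acts through tankyrase-dependent loss of Axin.

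CPM values are scaled by edgeR's TMM factors (trimmed mean of M values). Each is a level relative to the other RNA counted in its section, not scaled by transcript length. Since each library was made from an equal mass of RNA, the amount per section cannot be told from it. At 3 dpf, fewer cells of a type and less RNA per cell cannot be told apart either. Differences are log2 fold changes of section A over section B, or of a later over an earlier stage, each with its standard error (SE). They come from 1 fit of edgeR's quasi-likelihood model to all 20 libraries, with p-values adjusted by Benjamini and Hochberg over all 32502 loci tested and called under 0.05. The SE was derived from the test, as the size of the log2 fold change over the square root of its F statistic. It is thus approximate, and unreliable at low counts. All 20 loci passed the filter on low counts. Every locus of the count table also had at least 31 counts in some library. Section differences of the 3 selected loci are given as a description with no p-value, since they were selected on them.

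The axin1 locus LOC110485340 was a vegetal RNA at every stage. At 0 hpf it had 9.60 and 17.96 CPM in section A, against 84.98 and 70.8 CPM in section B. At 1 hpf the values were 10.7, 13.1 and 10.2 CPM in section A, against 209.9, 149 and 119.7 CPM in section B. The vegetal libraries thus spread over a wide range at 1 hpf, but the lowest of them was still far above the highest animal one. At 1 dpf section A had 22.8, 17.5 and 18.1 CPM and section B 292, 163 and 223 CPM. At 3 dpf section A had 27.7 and 28.3 CPM and section B 298 and 234 CPM. The mean of section B was 5.65, 14.0, 11.6 and 9.49 times that of section A at 0 hpf, 1 hpf, 1 dpf and 3 dpf. The fitted log2 fold changes of A over B were −2.50 ± 0.32, −3.81 ± 0.27, −3.54 ± 0.27 and −3.25 ± 0.33 (SE), and the sections did not overlap at any stage. Over all O. mykiss loci tested, section A lay wholly above section B for 29.8% and wholly below it for 31.9% at 0 hpf. These shares were 23.4% and 23.4% at 1 hpf, 20.8% and 19.4% at 1 dpf, and 23.9% and 39.7% at 3 dpf. Nothing is thus read from a lack of overlap at a stage, here or below.

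The locus named tnksa followed the same side. It had 11.4 and 14.9 CPM in section A and 67.0 and 55.6 CPM in section B at 0 hpf. At 1 hpf it had 9.10, 14.2 and 14.7 CPM in section A, against 86.0, 103 and 93.9 CPM in section B. Its section B libraries lay closer together at 1 hpf than those of axin1. At 1 dpf the values were 17.7, 14.7 and 18.7 CPM in section A and 134, 98.1 and 111 CPM in section B. At 3 dpf they were 18.9 and 27.7 CPM in section A and 119 and 94.8 CPM in section B. The mean of section B was 4.66, 7.45, 6.71 and 4.58 times that of section A from 0 hpf to 3 dpf, with log2 fold changes of −2.22 ± 0.26, −2.90 ± 0.22, −2.74 ± 0.21 and −2.20 ± 0.26 (SE). The sections again did not overlap.

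The fzd7a locus LOC110495872 lay on the other side of the egg. At 0 hpf it had 128 and 120.2 CPM in section A, against 17.95 and 39.6 CPM in section B. At 1 hpf it had 112, 121 and 129.6 CPM in section A and 7.11, 19.6 and 17.5 CPM in section B. The animal libraries agreed closely at these 2 stages, and the higher of the vegetal libraries at 0 hpf, replicate 2, was also the high one for the fzd7a locus LOC110527486. At 1 dpf it had 78.3, 103 and 74.6 CPM in section A and 11.02, 10.8 and 13.7 CPM in section B. At 3 dpf it had 60.5 and 48.1 CPM in section A and 12.9 and 7.496 CPM in section B. The mean of section A was 4.31, 8.21, 7.20 and 5.31 times that of section B, with log2 fold changes of 2.10 ± 0.38, 3.03 ± 0.32, 2.85 ± 0.33 and 2.41 ± 0.41 (SE). The ortholog table gives this locus a second zebrafish name, fzd7b, in 1 of its entries.

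**Figure D1:**
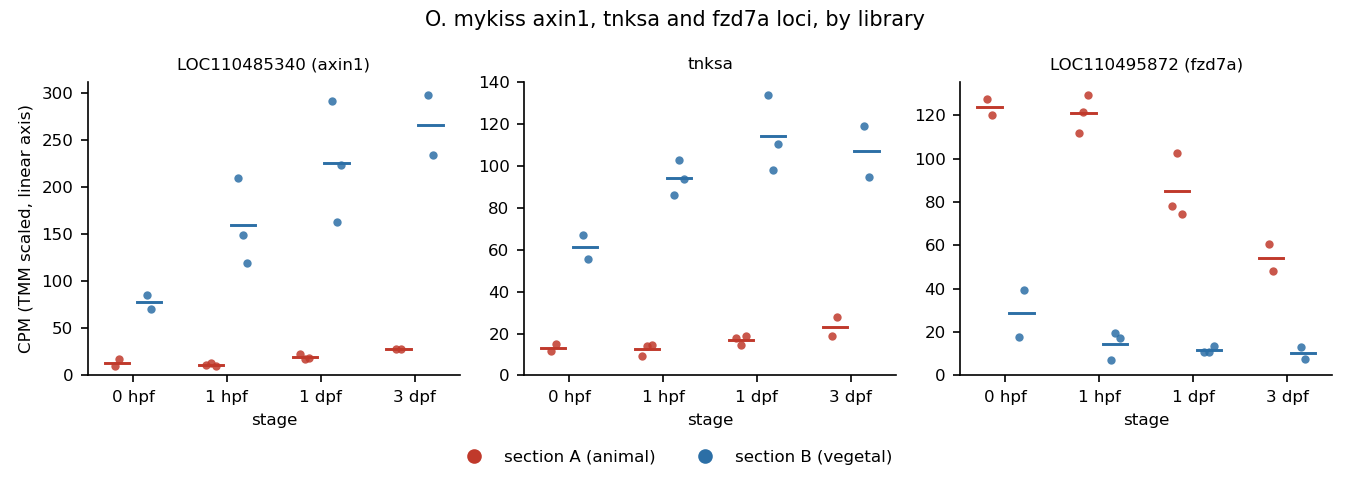
CPM (TMM scaled, linear axis) of the O. mykiss loci LOC110485340 (axin1), tnksa and LOC110495872 (fzd7a) at each stage; each point is a library, each bar a group mean, with section A left of section B (2 libraries per group at 0 hpf and 3 dpf, 3 at 1 hpf and 1 dpf). Section A lies below section B at all 4 stages for axin1 and tnksa and above it for fzd7a, with no overlap. Over all O. mykiss loci tested, section A lies wholly above section B for 29.8% and wholly below it for 31.9% at 0 hpf.

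The question of whether all loci of a symbol lie on the same side was put to the 7 other O. mykiss loci, which had not been selected on their section difference. Among the 10 O. mykiss loci, the fit called at 0 hpf 2 as higher and 4 as lower in section A, 2 and 4 at 1 hpf, 3 and 5 at 1 dpf and 4 and 5 at 3 dpf, the selected ones included. Over all 22724 O. mykiss loci tested, 1.45% were called higher and 3.96% lower at 0 hpf, 12.5% and 11.8% at 1 hpf, 14.3% and 13.8% at 1 dpf, and 15.2% and 27.1% at 3 dpf. The count of members includes loci selected on this very contrast, so nothing is read from it.

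The 2 other axin1 loci differed from each other. LOC110512102 had 11.7 and 20.5 CPM in section A, against 75.4 and 63.9 CPM in section B at 0 hpf. At 1 hpf it had 11.2, 12.6 and 11.9 CPM in section A and 165, 145 and 105 CPM in section B. Its log2 fold changes were −2.11 ± 0.29, −3.53 ± 0.25, −3.47 ± 0.25 and −3.09 ± 0.30 from 0 hpf to 3 dpf (SE, edgeR adjusted p = 0.00024, 8.96e-08, 1.6e-07 and 8.2e-07). These values are close to those of LOC110485340 in every library: the log2 ratio of the counts of the 2 loci stayed between −0.29 and 0.35 in all 20. How reads that match several copies were counted is not given in the sources used here, so LOC110512102 is not taken as a second measurement. Its section p-values are thus not free of the selection of LOC110485340, and nothing is read from them.

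LOC110538248, the third axin1 locus, was not vegetal. It had 23.1 and 28.6 CPM in section A and 16.8 and 18.3 CPM in section B at 0 hpf, and 16.6, 22.2 and 19.4 CPM in section A against 11.1, 16.8 and 15.3 CPM in section B at 1 hpf. Neither difference passed the test (0.56 ± 0.30, edgeR adjusted p = 0.505, and 0.43 ± 0.25, edgeR adjusted p = 0.30), and the sections overlapped at 1 hpf. At 1 dpf it had 19.7, 13.6 and 27.2 CPM in section A and 11.02, 12.2 and 12.1 CPM in section B, a called difference of 0.78 ± 0.26 (edgeR adjusted p = 0.037). That call was lost when any of 5 of the 6 libraries was left out in turn, with an edgeR adjusted p = 0.22 without section A replicate 3. At 3 dpf the locus had 29.9 and 36.7 CPM in section A and 13.1 and 17.2 CPM in section B, with no overlap (1.14 ± 0.31, edgeR adjusted p = 0.0051, and 0.054 without section B replicate 1). The log2 ratio of LOC110512102 to LOC110538248 was lower in section A than in section B, by −3.75 on average over the stages, and its median was −0.61 in section A and 3.65 in section B. That shift had an adjusted p = 0.00035 in an exact permutation test, two-sided, of the section labels within stages. Its unadjusted p is the lowest that 14400 permutations allow, and the adjustment was over 5 tested ratios. Since LOC110512102 follows the selected locus LOC110485340 in every library, this p is not free of that selection. Nothing is read from it.

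The 3 other tnksa loci differed from one another. LOC110523807 had 49.8 and 55.8 CPM in section A and 133 and 109 CPM in section B at 0 hpf. At 1 hpf it had 53.5, 53.8 and 46.4 CPM in section A and 221, 155 and 159 CPM in section B. At 1 dpf it had 80.2, 54.0 and 65.4 CPM in section A and 259.8, 234 and 179.7 CPM in section B. It was thus vegetal like the locus tnksa, with means of section B 2.29 to 3.48 times those of section A. Its log2 fold changes were −1.19 ± 0.25, −1.80 ± 0.21, −1.75 ± 0.21 and −1.41 ± 0.25 from 0 hpf to 3 dpf (SE, edgeR adjusted p = 0.0081, 6.6e-06, 8.2e-06 and 0.00021). The call at 0 hpf was lost without section A replicate 1, section A replicate 2 or section B replicate 1 (edgeR adjusted p = 0.18, 0.055 and 0.15).

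LOC110525835 was at 205 and 186 CPM in section A and 160.4 and 248 CPM in section B at 0 hpf, where the sections overlapped. At 1 hpf it had 237, 245 and 228 CPM in section A and 270.4, 247 and 189 CPM in section B, again with overlap. The log2 fold change was −0.06 ± 0.22 at 0 hpf and 0.01 ± 0.18 at 1 hpf (edgeR adjusted p = 1 for both). From 1 dpf the sections separated: 185, 207 and 176 CPM in section A stood against 306, 331 and 276 CPM in section B, and at 3 dpf 176 and 121 CPM in section A stood against 308 and 254 CPM in section B. Both later differences were called (−0.69 ± 0.18, edgeR adjusted p = 0.0099, and −0.92 ± 0.22, edgeR adjusted p = 0.00235). The value at 3 dpf depended on the scaling. It was −0.64 with DESeq2 (adjusted p = 0.011) and −0.64 with edgeR's median ratio (RLE) factors (edgeR adjusted p = 0.021). In the main fit the median section difference of all O. mykiss loci at 3 dpf was −0.33. No widening from 1 dpf to 3 dpf is thus read. The change of the section difference between 1 hpf and 1 dpf itself was −0.69 ± 0.26 and did not pass (edgeR adjusted p = 1), so the onset at 1 dpf is not shown by a test.

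LOC110536219 had higher means in section A at all 4 stages, 1.27 to 1.67 times those of section B, and overlapped with it at 1 hpf, 1 dpf and 3 dpf. At 1 dpf it had 41.0, 33.3 and 91.3 CPM in section A, against 28.4, 21.8 and 60.0 CPM in section B. At 3 dpf it had 43.6 and 92.1 CPM in section A and 17.5 and 63.6 CPM in section B. The high section A library and the high section B library carry the same replicate number at both stages. The differences were not called (0.35 ± 0.55, 0.74 ± 0.46, 0.59 ± 0.46 and 0.74 ± 0.56, edgeR adjusted p = 0.28 or more). Sections of the same number deviated together at 1 hpf and 1 dpf over the 11362 loci compared, as did some sections of different numbers. With the replicate number as a block the differences were called at 1 hpf (0.71, edgeR adjusted p = 0.0037) and 1 dpf (0.58, edgeR adjusted p = 0.016).

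The tnksa loci differed from one another in section. The log2 ratio of LOC110523807 to LOC110525835 differed by −1.12 in section A from section B (adjusted p = 0.00046), that of LOC110523807 to LOC110536219 differed by −2.17 (adjusted p = 0.00035), and that of LOC110525835 to LOC110536219 by −1.05 (adjusted p = 0.0040). These are exact permutation tests, two-sided, over all 20 libraries, adjusted over the 5 ratios tested. They pool the 4 stages, so no difference at a single stage is shown by them. From 0 hpf to 3 dpf the first ratio differed by −1.16, −1.80, −1.07 and −0.44. The second differed by −1.56, −2.48, −2.33 and −2.30, and the third by −0.39, −0.68, −1.26 and −1.86. Ratios that involve a selected locus were not tested.

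The 2 other fzd7a loci are LOC110527486 and a locus named fzd7a that had few counts before 3 dpf. LOC110527486 had 153 and 139 CPM in section A and 22.6 and 55.0 CPM in section B at 0 hpf, with replicate 2 of section B high as for LOC110495872. At 1 hpf it had 91.7, 98.5 and 104 CPM in section A and 22.1, 28.7 and 29.7 CPM in section B. At 1 dpf it had 91.8, 92.7 and 110.2 CPM in section A, against 23.8, 25.4 and 21.8 CPM in section B. It was thus animal at every stage. The log2 fold changes were 1.91 ± 0.28, 1.87 ± 0.23, 2.05 ± 0.23 and 1.90 ± 0.29 (SE, edgeR adjusted p = 0.00042, 1.4e-05, 5.7e-06 and 5.8e-05). In the order of protein-coding RefSeq genes (assembly USDA_OmykA_1.1), LOC110495872 and LOC110527486 each lie 2 genes from a locus with the zebrafish name als2b, whereas the locus named fzd7a lies beside als2a.

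The locus named fzd7a had 0 to 15 counts in every library before 3 dpf. At 3 dpf it had 161 and 22 counts in section A, or 29.9 and 4.62 CPM, and 8 and 0 counts in section B. It reached the 31 counts that every locus of the table had in some library only in section A at 3 dpf. It was thus in the table through that group alone and had to be high there. Its section difference at 3 dpf (4.56 ± 1.59) is given with no test, and nothing is read from it. The 2 animal libraries also differed widely. Without replicate 1 of section A the difference was 2.65, and without replicate 2 of section B it was 3.55. The log2 ratio of LOC110527486 to fzd7a differed between section A and section B by 1.11, 2.29 and 1.60 from 0 hpf to 1 dpf and by −2.64 at 3 dpf. The sign at 3 dpf was thus opposite to that of the earlier stages, and the mean of 0.59 over the stages did not pass (adjusted p = 0.49, exact permutation test, two-sided), on the low counts of fzd7a.

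**Figure D2:**
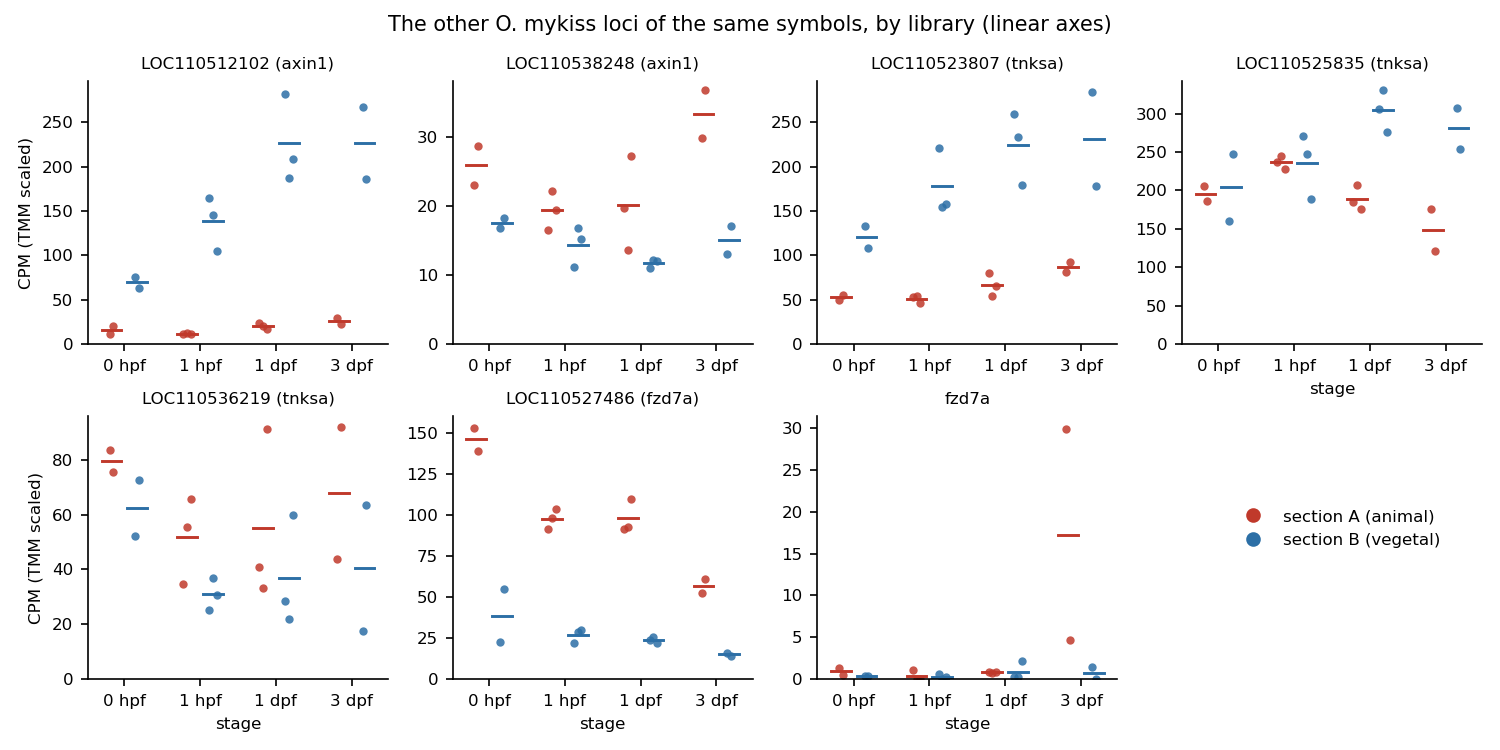
CPM (TMM scaled, linear axes that differ between panels) of the other O. mykiss loci with the symbols axin1, tnksa and fzd7a; points are libraries and bars are group means, with section A left of section B. LOC110512102 and LOC110523807 are vegetal at each stage, LOC110527486 is animal, LOC110525835 separates from 1 dpf, and fzd7a has 29.9 and 4.62 CPM in section A at 3 dpf.

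**Figure D3:**
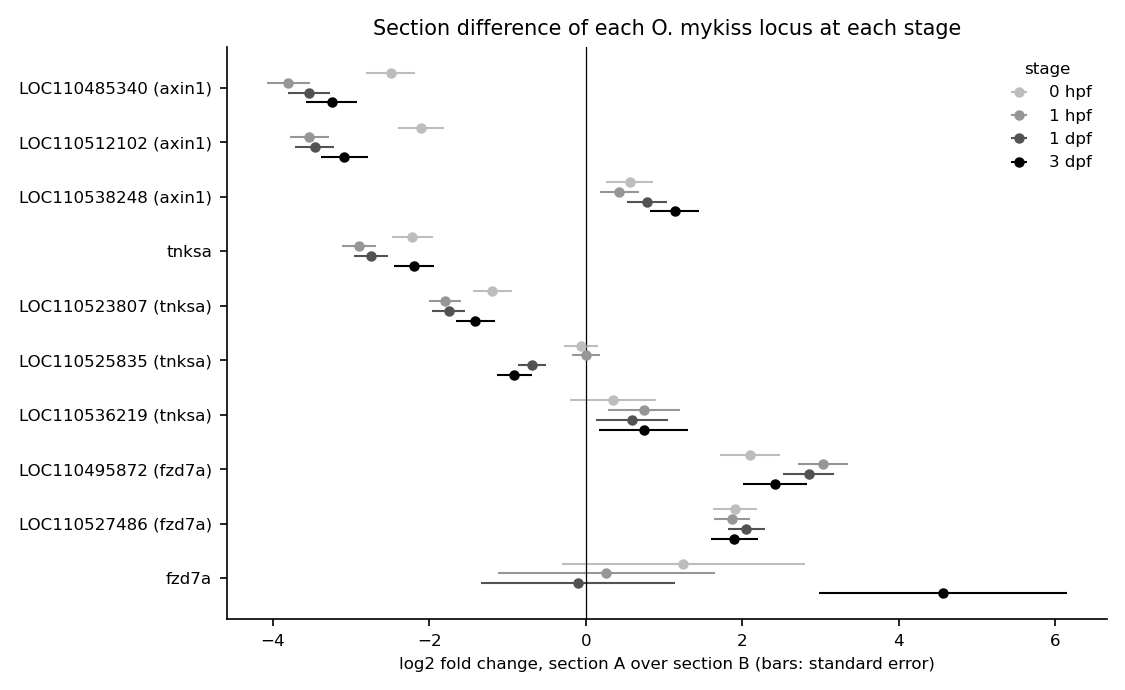
Log2 fold change of section A over section B for the 10 O. mykiss loci, by stage from 0 hpf to 3 dpf; points are edgeR estimates and bars their standard errors. Values left of 0 are higher in section B. The axin1 loci lie at −3.81 to −2.11 except LOC110538248 at 0.43 to 1.14, the tnksa loci run from −2.90 to 0.74, and the fzd7a loci LOC110495872 and LOC110527486 lie at 1.87 to 3.03.

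The comparison of stages asked whether the RNA levels themselves changed. In section B between 0 hpf and 1 hpf, the axin1 locus LOC110485340 averaged 159.5 ± 46.0 CPM at 1 hpf and 77.9 ± 10.01 CPM at 0 hpf (SD, n = 3 and 2). The log2 difference was 1.03 ± 0.28 (SE), and was not called (edgeR adjusted p = 0.14). The value for LOC110512102 was close to it (0.99 ± 0.26, edgeR adjusted p = 0.13). tnksa averaged 94.2 ± 8.35 CPM at 1 hpf and 61.3 ± 8.09 CPM at 0 hpf in section B, a log2 difference of 0.62 ± 0.22 (edgeR adjusted p = 0.21). The fzd7a locus LOC110495872 averaged 14.7 ± 6.69 CPM at 1 hpf and 28.8 ± 15.3 CPM at 0 hpf in section B, a log2 difference of −0.97 ± 0.34 (edgeR adjusted p = 0.20). Of the 10 O. mykiss loci, 6 had an unadjusted p under 0.05 in this step and 0 were called by edgeR. The 6 include the 3 loci selected on their section difference, and LOC110512102, which follows LOC110485340. DESeq2 called LOC110485340 and LOC110512102 higher at 1 hpf. Section B values entered the selection, so nothing is read from the count of 6 or from these calls. Over all O. mykiss loci edgeR called 1 in this step, or 0.0044%, and 3980 of 22724 had an unadjusted p under 0.05 in edgeR. DESeq2 called 1386 of the 32765 loci of both genomes.

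The vegetal list was also higher at 1 hpf in section B. Its summed level in section B was 5751 to 8782 CPM at 1 hpf and 3900 to 4940 CPM at 0 hpf, and in section A it was 956 to 1072 CPM at 1 hpf and 799 to 1195 CPM at 0 hpf. How much of the difference in axin1, tnksa and fzd7a goes with how the eggs were cut or with the libraries at 0 hpf was not tested. The log2 section difference of axin1 at 1 hpf less that at 0 hpf was −1.31 ± 0.40 for LOC110485340, given with no test, and −1.43 ± 0.37 for LOC110512102, which did not pass over all loci (edgeR adjusted p = 1). edgeR called 0 of all loci for this change.

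In section A between 0 hpf and 1 hpf, and in both sections between 1 hpf and 1 dpf, edgeR called 0 of the 10 O. mykiss loci, and DESeq2 also called 0. Over all loci edgeR called 0 in each of these steps too, and DESeq2 called 372 and 103 in section A and 88 in section B, so nothing is read from the members' 0. In section A, 1 of the 10 had an unadjusted p under 0.05 in the first of these steps and 2 in the second, the axin1 loci LOC110485340 (0.77 ± 0.26, edgeR adjusted p = 0.599) and LOC110512102 (0.78 ± 0.24, edgeR adjusted p = 0.595). In section B, 1 of the 10 did, LOC110512102 (0.71 ± 0.22, edgeR adjusted p = 0.46). From 1 dpf to 3 dpf section B again had 0 calls by either tool and 1 locus with an unadjusted p under 0.05, LOC110527486 (−0.64 ± 0.27, edgeR adjusted p = 0.80), beside 0 calls by edgeR and 69 by DESeq2 over all loci. In section B LOC110485340 averaged 266 ± 45.2 CPM at 3 dpf and 226 ± 64.4 CPM at 1 dpf (SD, n = 2 and 3). The locus tnksa averaged 107 ± 17.1 CPM at 3 dpf and 114 ± 18.2 CPM at 1 dpf there, and neither difference was called.

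Between 1 dpf and 3 dpf in section A, edgeR called 3 of the 10 O. mykiss loci: LOC110538248 (axin1) and fzd7a were higher at 3 dpf and LOC110527486 (fzd7a) was lower. Of all O. mykiss loci tested, 11.7% were called higher and 23.2% lower in this step, and their median log2 change was −0.33. LOC110538248 had 29.9 and 36.7 CPM at 3 dpf and 19.7, 13.6 and 27.2 CPM at 1 dpf in section A (0.72 ± 0.28, edgeR adjusted p = 0.036). LOC110527486 had 52.5 and 60.9 CPM at 3 dpf and 91.8, 92.7 and 110.2 CPM at 1 dpf (−0.79 ± 0.26, edgeR adjusted p = 0.014). Without section A replicate 1 at 3 dpf its change was −0.69 and was not called. fzd7a had 161 and 22 counts at 3 dpf and 6, 6 and 7 counts at 1 dpf in section A (4.38 ± 1.31, and 2.48 without section A replicate 1 at 3 dpf). It was in the table through section A at 3 dpf alone and had to be high there, so nothing is read from its rise or its call.

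Some of these late calls depended on the scaling, in libraries of which S. fontinalis loci held 24.03% and 22.5% at 3 dpf. With TMM factors from O. mykiss loci alone, the log2 changes of LOC110485340, LOC110512102, LOC110523807 and tnksa were 0.84, 0.70, 0.69 and 0.76 and were called (edgeR adjusted p = 0.021, 0.040, 0.017 and 0.012), against 0.53, 0.38, 0.38 and 0.45 with factors from all loci (adjusted p = 0.14, 0.25, 0.17 and 0.12). In the same setting the log2 change of LOC110527486 was −0.48 and was not called (edgeR adjusted p = 0.13). Section A values entered the selection of LOC110485340 and tnksa, and LOC110512102 follows LOC110485340. Nothing is thus read from the calls of LOC110485340, LOC110512102 and tnksa. LOC110538248 lost its call with library totals (0.55, edgeR adjusted p = 0.11), and when any of 4 of the 5 libraries was left out in turn (adjusted p up to 0.20). The tnksa locus LOC110525835 was called lower with library totals (−0.53, edgeR adjusted p = 0.028), against −0.35 in the fit to all libraries (edgeR adjusted p = 0.17). It was −0.06 with DESeq2 (adjusted p = 0.84) and −0.06 with edgeR's median ratio (RLE) factors (edgeR adjusted p = 0.84). Without section A replicate 1 at 3 dpf it was −0.65. The locus fzd7a was called in each of the 5 scalings, but it was in the table through section A at 3 dpf alone, so nothing is read from that. The selected fzd7a locus LOC110495872 was not called in this step (−0.65 ± 0.34, edgeR adjusted p = 0.125). The direction was the same in each of the 5 scalings for 10 of 10 loci.

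**Figure D4:**
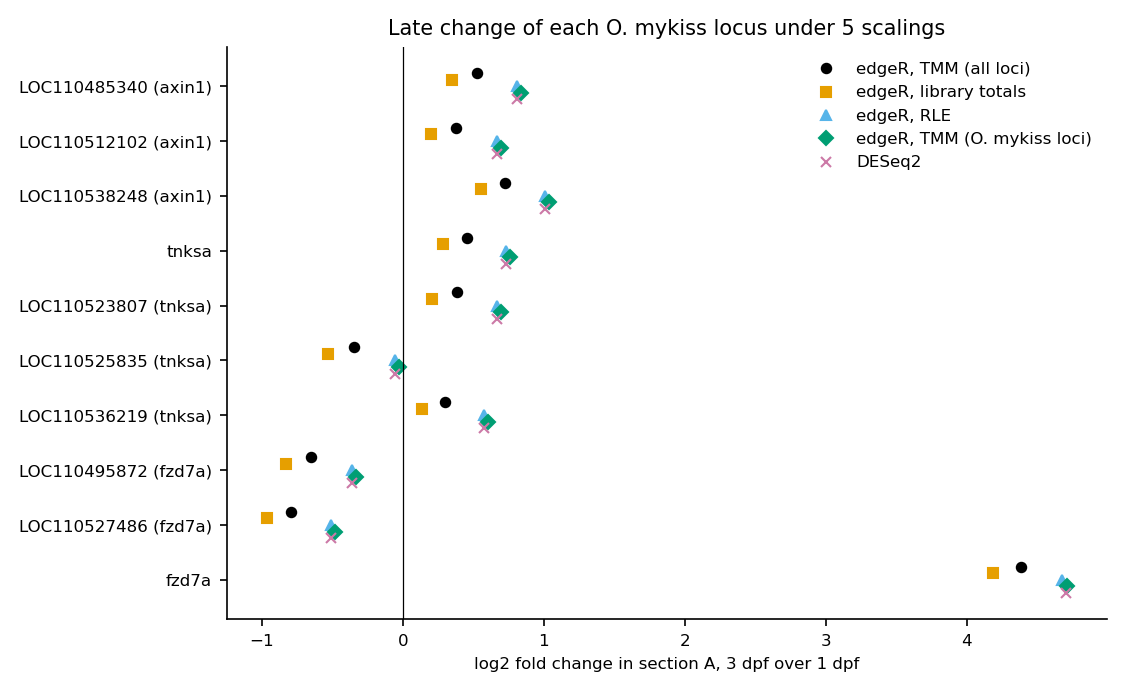
Log2 fold change from 1 dpf to 3 dpf in section A for the 10 O. mykiss loci under edgeR with 4 kinds of library factors and under DESeq2; each symbol is an estimate for 2 libraries at 3 dpf and 3 at 1 dpf. The symbols of a locus shift together: library totals give the lowest value of each locus, and factors from O. mykiss loci alone, median ratios (RLE) and DESeq2 the higher ones.

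For the change of the section difference between 1 dpf and 3 dpf, edgeR and DESeq2 called 0 of the 7 O. mykiss loci that had not been selected on their section difference. Over all O. mykiss loci, edgeR called 4.72% toward section A and 10.9% toward section B. The locus fzd7a was the 1 with an unadjusted p under 0.05 in edgeR (4.66 ± 1.97, edgeR adjusted p = 0.11). It was in the table through section A at 3 dpf alone, so nothing is read from this. For the selected loci the change is given with no test, and it was 0.29 ± 0.39 for LOC110485340, 0.55 ± 0.32 for tnksa and −0.43 ± 0.51 for LOC110495872. The value for tnksa depended on the tool and was 0.82 with DESeq2.

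The loci of S. fontinalis, the parent of the sperm, showed another pattern. At 3 dpf all 10 had higher counts in every section A library than in every section B library, and 9 of the 10 were called higher in section A. The libraries of the sections were apart in this direction for 93.1% of S. fontinalis loci. Of all 9778 S. fontinalis loci tested, 86.3% were called higher in section A at 3 dpf, so the members' share is near the background. All 10 were called higher at 3 dpf than at 1 dpf in section A, against 88.9% of all S. fontinalis loci. Of the 10, 4 passed the filter on low counts through section A at 3 dpf alone and had to differ there, the axin1 loci LOC129833063 and LOC129846192 and both fzd7a loci, so nothing is read from these counts. The tnksa loci LOC129813764 and LOC129826509 had at most 23 and 21 counts outside section A at 3 dpf. They thus reached 31 counts, as every locus of the table did in some library, through that group alone. The shares of all S. fontinalis loci may include loci of the same kind. Among the axin1 loci, LOC129846192 had 171 and 215 counts in section A at 3 dpf and 1 and 0 in section B, with 0 in all 3 section A libraries at 1 dpf. It was at least 99.4-fold higher in section A at 3 dpf than at 1 dpf, against a floor of 3 counts per library. LOC129830234 and LOC129833063 were alike: LOC129830234 had 118 and 96 counts in section A at 3 dpf and 0 and 3 in section B (6.27 ± 1.88, edgeR adjusted p = 0.0085, and 0.071 without section B replicate 1). LOC129833063 had 130 and 111 counts in section A and 1 and 2 counts in section B.

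The S. fontinalis fzd7a loci had 0 to 3 counts in every library outside section A at 3 dpf. LOC129840499 had 168 and 89 counts in section A at 3 dpf, against 0 and 0 counts in section B, at least 47.7-fold higher. LOC129859602 had 238 and 123 counts in section A at 3 dpf and 0 and 0 in section B, at least 66.9-fold higher. Both lay on the side on which the O. mykiss loci LOC110495872 and LOC110527486 lay, but so did nearly all S. fontinalis loci. Of the tnksa loci, LOC129853450 had 442 and 420 counts in section A at 3 dpf and 31 and 19 in section B (4.27 ± 0.62, edgeR adjusted p = 3.3e-05). LOC129826509 had 295 and 289 counts in section A and 3 and 2 counts in section B. Its difference (6.995 ± 1.23) is given with no test, as it was in the table through section A at 3 dpf alone. LOC129813764, with 33 and 29 counts in section A and 21 and 7 counts in section B, was the 1 locus not called. It too was in the table through section A at 3 dpf alone. Its difference (1.29 ± 0.76) is thus given with no p-value, and nothing is read from it.

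Counts assigned to some S. fontinalis loci were higher in section B before 3 dpf. The axin1 locus LOC129846200 had 8, 5 and 0 counts in section A and 47, 50 and 37 counts in section B at 1 hpf (−3.38 ± 0.66, edgeR adjusted p = 0.0012). At 1 dpf it had 10, 10 and 5 counts in section A and 53, 62 and 51 counts in section B (−2.95 ± 0.62, edgeR adjusted p = 0.0018). At 0 hpf, before or just after sperm entry, it already had 3 and 0 counts in section A and 18 and 14 counts in section B (−3.41 ± 0.97, edgeR adjusted p = 0.057). The tnksa locus LOC129818704 was lower in section A at 1 hpf (−1.67 ± 0.48, edgeR adjusted p = 0.018) and 1 dpf (−2.48 ± 0.49, edgeR adjusted p = 0.0012). LOC129813764 had 0, 1 and 0 counts in section A and 14, 23 and 15 counts in section B at 1 hpf (−5.24 ± 0.88, edgeR adjusted p = 0.00032). Thus 3 of 10 members were lower in section A at 1 hpf and 2 of 10 at 1 dpf, against 1.97% and 2.49% of all S. fontinalis loci. LOC129846200 and LOC129818704 lay on the side of the abundant vegetal O. mykiss loci of the same symbol at these stages. S. fontinalis loci held 0.927% to 1.08% of the counts in each of the 18 libraries outside section A at 3 dpf, those of 0 hpf included. How reads that match both parental genomes were assigned is not given in the sources used here, and the part of such reads in these counts was not tested. No vegetal RNA of the paternal species is thus read from these counts or shares.

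At 3 dpf the axin1 locus LOC129846200 was higher in section A. It had 117 and 241 counts in section A and 50 and 53 counts in section B (2.01 ± 0.67, edgeR adjusted p = 0.016, and not called in 3 of 4 omissions of 1 library, with adjusted p = 0.21 without section A replicate 2, and 0.072 and 0.069 without section B replicate 1 and replicate 2). Its counts in section B were 51 to 62 at 1 dpf, beside 50 and 53 at 3 dpf, while section A was called higher at 3 dpf than at 1 dpf (5.05 ± 0.67, edgeR adjusted p = 1.3e-05). LOC129818704 had 114 and 160 counts in section A and 38 and 23 counts in section B (2.35 ± 0.56, edgeR adjusted p = 0.0021).

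The share of counts that fell on S. fontinalis loci was taken for each symbol in the animal section at 3 dpf. For axin1 it was 53.2% in replicate 1 (95% exact binomial interval 50.0% to 56.3%) and 61.2% in replicate 2 (58.2% to 64.1%). For tnksa it was 33.9% (32.1% to 35.7%) and 36.2% (34.3% to 38.1%), and for fzd7a 34.5% (31.8% to 37.3%) and 28.2% (24.97% to 31.5%). Axin1 thus stood above the other symbols in both libraries, tnksa and fzd7a overlapped in their ranges, and all were above the 24.03% and 22.5% of the whole libraries. In the other 18 libraries the share was 1.35% to 3.45% for axin1, 0.768% to 2.71% for tnksa and 0% to 0.214% for fzd7a. The intervals cover counting error only, shares are of counts not scaled by transcript length, and with 2 libraries no test between symbols was made. The number of loci per symbol also differs between the genomes, 4 and 3 for axin1, 4 and 4 for tnksa and 2 and 3 for fzd7a. The whole table holds 9992 S. fontinalis and 22773 O. mykiss loci. The share of the whole libraries is therefore not a like measure, and nothing is read from the shares of the symbols lying above it.

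**Figure D5:**
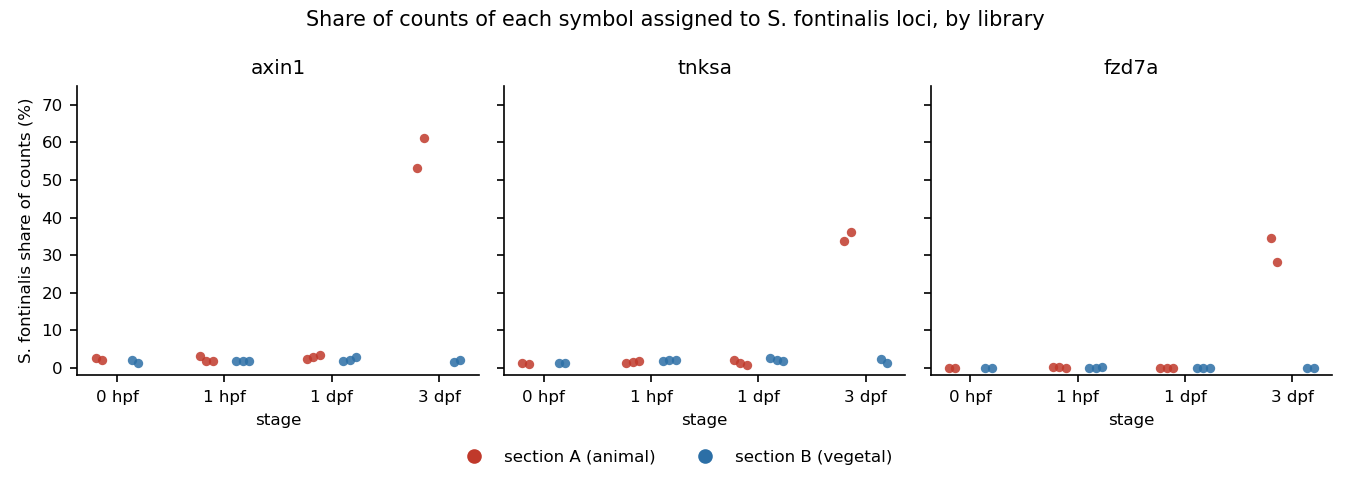
Percent of the counts of each symbol that were assigned to S. fontinalis loci, by library and stage, with section A left of section B. In section A at 3 dpf the libraries lie at 53.2% and 61.2% for axin1, 33.9% and 36.2% for tnksa and 34.5% and 28.2% for fzd7a, and every other library lies at 3.45% or less.

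The rest of the pathway was described with a list of Wnt symbols, of which 102 O. mykiss loci besides the members were in the table and tested. In section A 1 was called higher and 7 lower at 0 hpf, at 1 hpf 9 and 23, at 1 dpf 12 and 25, and at 3 dpf 25 and 42. Over all O. mykiss loci the shares called higher and lower were 1.45% and 3.96%, 12.5% and 11.8%, 14.3% and 13.8%, and 15.2% and 27.1%. With the replicate number as a block the higher ones were 15 at 1 hpf and 22 at 1 dpf. The block also raised the calls over all loci, both directions together, from 5926 to 8686 at 1 hpf and from 6947 to 9571 at 1 dpf. With TMM factors from O. mykiss loci alone, 27 were lower at 3 dpf. The shares above are those of the main fit, so nothing is read from the counts under these other settings. The median log2 fold change of the list was −0.06, −0.12, −0.06 and −0.14 over the 4 stages, beside −0.02, −0.03, −0.01 and −0.33 over all O. mykiss loci.

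Among the dorsal determinants, both O. mykiss loci of hwa were vegetal at all 4 stages. The symbol hwa was in the list of vegetal RNAs that was chosen with earlier results of these data known. Its section differences are thus given with no test. The locus hwa averaged 2.77 ± 1.60 CPM in section A and 37.4 ± 1.39 CPM in section B at 0 hpf (SD, n = 2 each, log2 fold change −3.75 ± 0.63). LOC110509564, the other hwa locus, averaged 3.74 ± 1.97 CPM in section A and 48.3 ± 7.63 CPM in section B at 0 hpf (−3.69 ± 0.62). The axin1 loci LOC110485340 and LOC110512102 and the tnksa loci tnksa and LOC110523807 were also higher in section B, whereas the other axin1 locus and the other tnksa loci were not so at every stage. Of the 3 loci for other parts of Axin turnover by tankyrase, 0 were called at 0 hpf, and 2 were lower in section A and 0 higher at 1 hpf and at 1 dpf, and 3 lower and 0 higher at 3 dpf. Of the 18 destruction complex loci besides axin1, 0 were higher and 2 lower at 0 hpf, 3 and 5 at 1 hpf, 4 and 6 at 1 dpf, and 5 and 10 at 3 dpf. In groups of this size, beside 12.5% and 11.8% of all O. mykiss loci at 1 hpf and 15.2% and 27.1% at 3 dpf, nothing is read from the counts.

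Of the 14 loci for Frizzled receptors and co-receptors besides fzd7a, 0 were called at 0 hpf, and at 1 hpf 1 was higher in section A and 1 lower. At 1 dpf 1 was higher and 2 lower, and at 3 dpf 5 were higher and 4 lower, beside the same shares of all O. mykiss loci. LOC110503207 (fzd4) averaged 6.07 CPM in section A at 3 dpf and had 0 counts in section B, at least 11.6-fold higher. It averaged 0.0408 CPM or less in every other group, so it passed the filter on low counts through section A at 3 dpf alone. It had to differ there, and nothing is read from the fold. LOC110488244 (fzd1) fell to 46.2 ± 5.62 CPM in section A at 3 dpf, against 148 ± 25.8 CPM at 1 dpf (SD, n = 2 and 3; −1.68 ± 0.18, edgeR adjusted p = 1.2e-06). Its section difference changed with it (−1.63 ± 0.23, edgeR adjusted p = 0.00024), with 198 ± 19.8 CPM in section B at 3 dpf.

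Ligands and nuclear partners also differed in side. wnt5a, a ligand mostly of beta-catenin-independent signaling, averaged 11.8 ± 0.612 CPM in section A and 63.9 ± 48.9 CPM in section B at 0 hpf (SD, n = 2 each; −2.43 ± 0.54, edgeR adjusted p = 0.012), where its vegetal libraries spread widely. tcf7l1a, a transcription factor that represses Wnt targets until beta-catenin binds, averaged 80.2 ± 2.26 CPM in section A and 534 ± 93.7 CPM in section B at 1 hpf (n = 3 each; −2.73 ± 0.26, edgeR adjusted p = 8.5e-07). LOC110506548 (pygo1), a beta-catenin co-activator gene, averaged 2.79 ± 1.02 CPM in section A and 19.7 ± 3.73 CPM in section B at 1 dpf (n = 3 each; −2.82 ± 0.42, edgeR adjusted p = 8.5e-05). On the animal side, chd8, a chromatin remodeler gene that binds beta-catenin, averaged 508 ± 26.2 CPM in section A and 232 ± 104 CPM in section B at 0 hpf (n = 2 each; 1.13 ± 0.30, edgeR adjusted p = 0.041), the 1 locus of the list called higher there. That call was lost with library totals and without section A replicate 1, section A replicate 2 or section B replicate 1. LOC110530592, also chd8, was higher in section A at 1 hpf (1.46 ± 0.28, edgeR adjusted p = 0.0011). celsr2, a planar polarity cadherin gene, was higher in section A at 1 hpf and 1 dpf (1.34 ± 0.30 and 1.77 ± 0.31, edgeR adjusted p = 0.0036 and 0.00038). daam1a, a formin gene of the planar polarity branch, was called higher in section A at 1 dpf (4.77 ± 1.51, edgeR adjusted p = 0.030) on means of 3.09 ± 4.51 CPM in section A and 0.0949 ± 0.164 CPM in section B.

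Between 1 dpf and 3 dpf 20 of the 102 loci were higher and 24 lower in section A, beside 11.7% and 23.2% of all O. mykiss loci. LOC110524590 (ccnd1), the cyclin D1 gene and a Wnt target, averaged 48.3 ± 3.48 CPM in section A at 3 dpf and 0.169 ± 0.185 CPM at 1 dpf (SD, n = 2 and 3). LOC110537729 (tcf7), a nuclear partner of beta-catenin, averaged 17.9 ± 0.402 CPM at 3 dpf and 0.0820 ± 0.0710 CPM at 1 dpf. LOC110518765 (dkk2), a secreted modulator of the Wnt co-receptor, averaged 11.3 ± 1.81 CPM at 3 dpf with 0 counts at 1 dpf, at least 29.2-fold higher. These loci averaged 0.19 CPM or less in every group other than section A at 3 dpf. They passed the filter on low counts through that group alone and had to differ there. No test is thus given for them and nothing is read from their rises. LOC110536043 (tcf7l1a) and LOC110532482 (porcn, which lipidates Wnt ligands for secretion) fell by 1.55 ± 0.31 and by 1.54 ± 0.36 on the log2 scale (edgeR adjusted p = 0.00051 and 0.0017).

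The section difference changed between 1 dpf and 3 dpf in 7 loci of the list toward section A and in 12 toward section B, of 102 tested, beside 4.72% and 10.9% of all O. mykiss loci. The planar polarity gene LOC110500440 (vangl2) and the ligand wnt11f2 moved toward section A (4.31 ± 0.83 and 5.24 ± 1.35, edgeR adjusted p = 0.0018 and 0.011). Their group means outside section A at 3 dpf were 3.47 CPM or less. Whether they were in the table through that group alone was not tested. The 7 loci also include the Wnt deacylase gene LOC110493314 (notum1a). By mean and SD, its counts outside section A at 3 dpf stayed under the 31 that every locus had in some library. It was thus in the table through that group alone. Its change (3.90 ± 1.30) is given with no test, and nothing is read from it. dact1, which binds Dishevelled, and LOC110537298 (amer1), which binds APC, moved toward section B (−1.43 ± 0.25 and −1.23 ± 0.23, edgeR adjusted p = 0.00093 and 0.0018). On the S. fontinalis side 69 of 76 list loci tested were higher in section A at 3 dpf, a share again near that of all S. fontinalis loci. The 3 with the highest level there were ctnnb1, the beta-catenin gene (477 ± 175 CPM in section A and 0.174 ± 0.0111 CPM in section B, n = 2 each), LOC129824251 (chd8, 212 ± 54.2 CPM in section A and 2.58 ± 1.07 CPM in section B) and LOC129859954 (fzd5, 154 ± 104 CPM in section A and 0 counts in section B). They were picked on their level in section A at 3 dpf, so nothing is read from their section differences.

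The O. mykiss loci whose levels followed the selected ones most closely were found by Pearson's r of log2(CPM + 1) over the 20 libraries, among 8984 O. mykiss loci with a symbol and at least median abundance. The libraries share section and depth, so r is a description. For LOC110485340 they were LOC110512102 (axin1), LOC110535057 (si:ch73-138n13.1), LOC110530128 (mast3a), rgl1 and LOC110506529 (atxn1l), with r of 0.992 to 0.996. For tnksa they were slc9a1a, LOC110522337 (ncoa7b), LOC110507997 (akt2), LOC110523578 (wbp1) and LOC110533610 (wwc1), with r of 0.987 to 0.991. For LOC110495872 they were LOC110489088 (stk40), LOC110493206 (atp2b2), LOC110530206 (xpr1b), LOC110493969 (LOC100535338) and LOC110501466 (ubr3), with r of 0.969 to 0.979.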

How the data were processed

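The deposited table holds raw counts per gene for 20 libraries, with the loci of both parental genomes as rows. Every locus in it had at least 31 counts in some library. The submitters' processing notes name HTSeq 2.0.4, STAR 2.7.11, fastp 0.23.4 and DESeq2. The genome builds, the strand setting and the treatment of reads that match several loci are not given in the sources used here. Per the labels' protocols, RNA was precipitated with LiCl, freed of ribosomal RNA and turned into directional libraries from an equal mass of total RNA. The normalized tables that the authors deposited were not used. The counts were fitted with edgeR 4.0.16 (R 4.3.3): TMM factors, filterByExpr, quasi-likelihood tests over 8 groups of section and stage, and Benjamini-Hochberg adjustment over 32502 loci. DESeq2 1.42.0, other factors, no filter, a replicate block and leaving out each library in turn were alternatives. Replicates are biological per the labels.

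Of the 32765 loci, 8838 carry their own symbol, 12653 took one from the deposited ortholog table and 11274 have none. The members and the Wnt and marker lists were chosen with earlier results of these data known. Named besides the members were the 5 loci most correlated with each selected locus, the 3 highest and 3 lowest called Wnt list loci per contrast, and the 3 most abundant S. fontinalis Wnt loci. Biotypes and gene order came from RefSeq for O. mykiss, which held 10 of the 10 O. mykiss loci. A fold against a group at 0 uses a floor of 3 counts per library. Ratios of loci used counts with 1 added. Deviations from the group means were correlated between sections over 11362 loci. Sections of the same replicate number deviated together at 1 hpf (correlations 0.68, 0.38 and 0.59) and at 1 dpf (0.42, 0.62 and 0.70), by the data and not by the labels. Some sections of different numbers did so too. Replicates 2 and 3 gave 0.34 and 0.53 across numbers at 1 hpf, and replicates 1 and 2 gave 0.29 and 0.31 at 1 dpf. The remaining pairs of different numbers were negative at both stages. The pairing is thus not settled for each replicate. The scripts were tested on simulated counts.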

Additional observations from a re-analysis of the deposited data

Results flagged for a closer look

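The section difference changed between 1 dpf and 3 dpf, by a test of the change itself, for 8 of the 10 S. fontinalis loci, each toward section A, against 31.4% of all S. fontinalis loci. Of these 8, LOC129833063 and LOC129846192 passed the filter on low counts through section A at 3 dpf alone and had to differ there, so their fitted changes are not given and nothing is read from the count. LOC129813764 and LOC129826509 reached the 31 counts that every locus of the table had in some library only there. Their changes are thus given with no test, and nothing is read from them. The changes on the log2 scale, with edgeR adjusted p-values, were as follows for axin1: 7.90 for LOC129830234 (0.020) and 4.95 for LOC129846200 (0.0014). For tnksa they were 4.82 for LOC129818704 (0.00042) and 5.58 for LOC129853450 (0.00019), and with no test 3.16 for LOC129813764 and 6.04 for LOC129826509. The libraries of section A at 3 dpf are also those with 24.03% and 22.5% of counts on S. fontinalis loci, and the part of that in these changes was not tested. When each of the 10 libraries was left out in turn, LOC129830234 lost its call in 3 omissions, LOC129826509 in 5 and LOC129813764 in 7. In section B at 1 dpf LOC129830234 had counts in replicate 3 alone and LOC129826509 in replicate 2 alone, so omitting that library leaves the group at 0 counts and gives no usable change. In its other omissions that ended the call, LOC129830234 had changes of 7.84 (without section A replicate 1 at 3 dpf) and 6.96 (without section B replicate 1 at 3 dpf). The calls of LOC129818704, LOC129846200 and LOC129853450 held in 10 of 10 omissions.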

How the results depend on the processing

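Among the results compared, no alternative reversed a called direction, and omitting the filter on low counts changed no call. The section difference of LOC110485340 at 3 dpf, −3.25 in the fit reported, was −2.97 with DESeq2, −2.97 with RLE factors and −2.93 with TMM factors from O. mykiss loci alone. From 1 dpf to 3 dpf in section A, LOC110538248 was 0.55 with library totals and 0.50 to 1.00 when libraries were left out. LOC110527486 was −0.51 with DESeq2, −0.51 with RLE factors, −0.48 with O. mykiss factors, and −0.90 to −0.69 when libraries were left out. The locus fzd7a ranged from 2.48 to 5.17. Of the Wnt list, 1 locus was higher in section A at 0 hpf, against 6 with DESeq2, 2 with RLE factors, 0 with library totals, 7 with the replicate block, 7 with the crossed replicate block and 0 to 1 with a library left out. At 0 hpf 7 were lower, against 12 with DESeq2, 11 with the replicate block, 12 with the crossed replicate block and 2 to 7 with a library left out. At 1 hpf 9 were higher, against 15 with the replicate block, and 23 were lower, against 15 to 22 with a library left out. At 1 dpf 12 were higher, against 19 with library totals and 22 with the replicate block. At 3 dpf 42 were lower, against 27 with RLE factors and 27 with O. mykiss factors.

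Over all O. mykiss loci, at 0 hpf 329 were higher in section A and 901 lower, against 1076 and 1359 with DESeq2, and 25 to 512 and 221 to 864 with a library left out. At 0 hpf same-numbered sections deviated in opposite ways (correlation −0.32). The crossed pairing, chosen after seeing the data, gave 1519 higher and 1790 lower loci, and the same-number replicate block 1279 and 1626. From 1 dpf to 3 dpf in section A 5262 loci were lower, against 3396 with DESeq2, 2978 with RLE factors and 2774 with O. mykiss factors, and 2656 were higher, against 1736 without replicate 1 of section A at 3 dpf. The causes were not tested. From 0 hpf to 1 hpf in section B, a replicate block used numbers shared across stages, which nothing in the labels pairs. It gave −1.24 for LOC110536219 (edgeR adjusted p = 0.049), and with no test 1.09 for LOC110485340 and 1.07 for LOC110512102. At 3 dpf, with 2 pairs, the replicate block gave 0.89 for the section difference of LOC110536219 (edgeR adjusted p = 0.0019). Without the block, that difference was 1.95 when replicate 2 of section B was left out. For the change of the section difference from 1 dpf to 3 dpf it gave 4.53 for fzd7a and 3.28 for LOC129813764. Both loci were in the table through section A at 3 dpf alone, so no test is given. With 2 or 3 libraries a group and counts under 20 for several S. fontinalis loci before 3 dpf, small differences of those loci were not detectable at this depth.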

Other observations

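At some loci, libraries of 1 replicate number stood apart in both sections of a stage. The tnksa locus LOC110536219 had 91.3 CPM in section A and 60.0 CPM in section B in replicate 3 at 1 dpf, against 41.0 and 33.3 CPM in section A and 28.4 and 21.8 CPM in section B in the other 1 dpf replicates. The S. fontinalis axin1 locus LOC129830234 had 12 counts in section A and 33 in section B in replicate 3 at 1 dpf, and 0 in the other 1 dpf libraries. It had 6 and 10 counts in section A and 8 and 7 counts in section B at 0 hpf. The S. fontinalis tnksa locus LOC129826509 had 18 and 17 counts in section A and 21 and 18 counts in section B in replicates 2 and 3 at 1 hpf, 3 and 2 counts in replicate 1, and 0 in every library at 0 hpf.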
